A study of Homo sapiens with 18 samples.

Results

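The 9 genes described here encode the signal peptidase complex (SPCS1, SPCS2, SPCS3, SEC11A and SEC11C) and the signal peptide peptidase family (HM13, SPPL2A, SPPL2B and SPPL3). They were chosen by name, as the listed members of these protease families, and all 9 have a row among the 25435 rows of the count table. RNA-Seq covered HEK293doxERN2 cells, a human embryonic kidney line (HEK293) with a doxycycline-inducible transgene for FLAG-tagged human ERN2, an ER-resident stress sensor. There were 18 libraries in 6 groups of 3. Doxycycline was given at 0, 10 or 100 ng/mL for 24 hours, and at each dose, 0 included, cells received either 200 nM thapsigargin, which blocks the ER calcium pump and causes ER stress, or an equal volume of DMSO (vehicle) for 3 hours. All groups carry the transgene and the endogenous ERN2 gene, and their reads cannot be told apart in gene counts. No group without the transgene that received doxycycline was analysed here, so an effect of doxycycline itself cannot be told apart from that of ERN2. Nothing in the labels says that replicates came from separate cultures, so p-values measure the spread between these libraries, which may be technical.

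Signal peptidase cuts the signal peptide from a secretory or membrane protein as the chain enters the ER through the SEC61 channel. SEC11A and SEC11C are its alternative catalytic subunits, while SPCS1, SPCS2 and SPCS3 are accessory subunits. The leftover peptide stays in the membrane until signal peptide peptidase, encoded by HM13, cuts it within the bilayer. The SPPL proteases share this intramembrane aspartyl protease fold but work elsewhere: SPPL2A in late endosomes and lysosomes, SPPL2B towards the cell surface, and SPPL3 in the Golgi, where it releases glycosyltransferases. ERN2 and its relative ERN1 cut the XBP1 mRNA at a pair of stem-loops so that XBP1 protein, a transcription factor for ER genes, can be made.

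On GRCh38, the build that the deposited counts used under its name hg38, the members lie on 8 chromosomes, with SEC11A and SPPL2A both on chromosome 15. SPPL3 spans chr12:120762510-120904371 on the minus strand, and SPPL2A chr15:50702266-50765808 on the minus strand. HM13 spans chr20:31514410-31577923 and SPCS2 chr11:74949247-74979031, both on the plus strand. In GENCODE release 29 the coding sequences of the transcripts chosen for each gene ran from 306 bases for SPCS1 to 1776 bases for SPPL2B. The exons of SPCS1 overlap those of NEK4, which runs the other way, by 2698 bases, and the exons of HM13 overlap those of MCTS2P on the same strand by 670 bases. Those of SPPL2B overlap the exons of AC005258.1, a protein-coding gene on the same strand that has no row in the table, by 1048 bases. A further 4 annotated pseudogenes are named after SPCS2. The library kit keeps the strand, but whether the counting used it is not given in the sources used here. The values of SPCS1, HM13, SPPL2B and SPCS2 may therefore include reads that belong to these neighbours and copies, or lack reads shared with them.

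The cut sites in XBP1 are shown because they are the known substrate of ERN2 and served as the pattern for a search of the members. Each holds the loop CNGCAGN, printed in capitals, between the arms of a stem in lower case. Both were found in exon 4 of XBP1 on the minus strand of chromosome 22, at chr22:28796143-28796161 and chr22:28796116-28796136, with 6 and 7 base pairs in the stem.
XBP1 first stem-loop: ctgagtCCGCAGCactcag
XBP1 second stem-loop: tgcacctCTGCAGCaggtgca

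The coding sequences of the 9 members were searched on the sense strand for the same loop of 7 bases flanked by at least 4 Watson-Crick pairs. None of the 9 held one, while 2.12% of the 12744 genes tested that had a coding sequence did. The shorter word CTGCAG stood in the coding sequence of SPPL2B and in those of no other member, against 70.4% of these genes. The median coding sequence of these genes was 1434 bases long, and 7 of the 9 members lie below it. A missing match says only that these letters are not in this window.

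The promoters of SPPL3 and SPPL2A, the members that fell between 0 and 100 ng/mL, and of SPCS2, the member with the highest log2 difference at 10 ng/mL in vehicle, are shown as RefSeq gives them on GRCh38.p14, from 250 bases before to 50 bases after the start. Capitals mark CCACG or ACGTG, words found in the binding sites of ATF6 and XBP1, on either strand. A palindrome CACGTG holds ACGTG on both strands, and CCACGT holds both words. The windows are chr12:120904309-120904608 (minus strand), chr15:50765657-50765956 (minus strand) and chr11:74949016-74949315 (plus strand).
SPPL3 promoter: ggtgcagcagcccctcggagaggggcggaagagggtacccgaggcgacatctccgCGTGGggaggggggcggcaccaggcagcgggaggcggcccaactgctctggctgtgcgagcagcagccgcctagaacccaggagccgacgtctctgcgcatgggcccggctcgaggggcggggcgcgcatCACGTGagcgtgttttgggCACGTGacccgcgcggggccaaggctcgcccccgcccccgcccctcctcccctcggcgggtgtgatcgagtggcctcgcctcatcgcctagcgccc
SPPL2A promoter: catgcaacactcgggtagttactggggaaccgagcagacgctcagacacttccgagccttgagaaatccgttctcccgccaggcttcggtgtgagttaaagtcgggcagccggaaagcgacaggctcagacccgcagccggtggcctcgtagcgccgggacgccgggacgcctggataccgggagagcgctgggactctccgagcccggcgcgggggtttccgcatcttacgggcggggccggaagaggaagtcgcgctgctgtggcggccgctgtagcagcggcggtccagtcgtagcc
SPCS2 promoter: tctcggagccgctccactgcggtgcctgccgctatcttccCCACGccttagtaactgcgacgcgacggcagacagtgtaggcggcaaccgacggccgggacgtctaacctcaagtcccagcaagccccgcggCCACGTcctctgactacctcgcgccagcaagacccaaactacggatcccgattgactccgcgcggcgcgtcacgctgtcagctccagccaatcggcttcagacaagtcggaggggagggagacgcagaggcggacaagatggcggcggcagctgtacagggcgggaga

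The SPPL3 window held 2 copies of CACGTG and 1 of CCACG, and the SPCS2 window 2 of CCACG, while the SPPL2A window held neither word. Of 27305 promoters of the same length, 37.9% held CCACG and 21.6% held ACGTG. Windows were at hand for 6 members. In the other 3, SEC11A held CCACG, SEC11C held both words and SPCS3 neither, and SPCS1, HM13 and SPPL2B were not matched.

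Library totals ran from 14876416 to 24652240 counted reads, and the members drew between 165 reads (SPPL2A) and 3978 reads (HM13) per library. Levels are CPM, the counts divided by library size after TMM scaling over all 18 libraries, given as mean ± SD of 3 libraries. A gene was called when the adjusted p of edgeR's quasi-likelihood test, corrected by the Benjamini-Hochberg method over all genes tested, was under 0.01. ERN2 checked the labels: its level was 7.92 ± 1.30 CPM without doxycycline, 35.7 ± 18.4 CPM at 10 ng/mL and 266 ± 36.1 CPM at 100 ng/mL in vehicle, and 12.4 ± 1.98, 66.1 ± 40.8 and 201 ± 57.3 CPM in thapsigargin. DDIT3, a transcription factor gene of the stress response, stood at 10.1 ± 1.31 CPM in vehicle and 157 ± 1.42 CPM in thapsigargin without doxycycline, and HSPA5, the ER chaperone BiP, at 511 ± 34.2 and 3689 ± 990 CPM. The extract protocol names colon crypt cells, but 11 of 13 colon and goblet cell markers (MUC2, TFF3 and CLCA1 among them) stayed at 0.403 CPM or less in all libraries, CDX2 reached 8.94 and LGR5 36.0 CPM, and all 6 HEK293 markers were detected throughout, NEFL at 67.3 to 125 CPM. Summed within each library, the 13 colon markers ranged from 13.9 to 40.7 CPM over the libraries of all 6 groups, and the 6 HEK293 markers from 187 to 305 CPM. The sums of the 4 fibroblast markers ranged from 10.2 to 28.7 CPM and those of the 3 blood markers from 0 to 0.273 CPM. Replicate 1 of the group given 10 ng/mL in vehicle and replicate 1 of that given 100 ng/mL with thapsigargin stood apart: leaving out the former raised the genes called between 10 and 0 ng/mL from 28 to 2743, and leaving out the latter raised those between 100 and 0 ng/mL in thapsigargin from 1512 to 3950. Calls of members that rest on either library are given with and without it.

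All 9 members were expressed in every library and passed the filter on low counts in all 11 comparisons. In uninduced vehicle-treated cells, levels per kilobase of transcript placed HM13 highest, at 79.8 ± 2.5 CPM per kilobase, and SPPL2A lowest, at 4.7 ± 1.0. SEC11A (68.0 ± 4.0), SEC11C (58.1 ± 3.9) and SPCS1 (51.5 ± 2.4 CPM per kilobase) followed HM13, and the libraries of SEC11C and SPCS1 overlapped. SPCS3 (19.5 ± 3.9) and SPPL3 (17.0 ± 2.3 CPM per kilobase) also overlapped, whereas SPCS2 (13.4 ± 1.2) and SPPL2B (9.6 ± 1.1 CPM per kilobase) were each separate from their neighbours. These values depend on the transcript chosen for the length. The family's other gene, SPPL2C, had 1 read in replicate 3 at 100 ng/mL in vehicle and no read in any other library.

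SPPL3, the Golgi protease, fell in 4 of the 6 comparisons between doses, more than any other member. In vehicle, its 3 libraries stood at 65.8, 81.2 and 64.0 CPM without doxycycline, at 59.5, 66.2 and 53.6 CPM at 10 ng/mL, and at 31.5, 39.4 and 33.3 CPM at 100 ng/mL. In thapsigargin they stood at 59.3, 66.2 and 64.9 CPM, then 55.9, 54.3 and 46.4 CPM, then 20.0, 16.4 and 23.6 CPM. The libraries at 100 ng/mL lay below every library at the lower doses in both treatments, whereas those at 0 and 10 ng/mL overlapped in vehicle and did not in thapsigargin. SPPL3 fell by 1.02 on the log2 scale between 0 and 100 ng/mL in vehicle (SE 0.14, adjusted p = 0.000199, edgeR) and by 1.60 in thapsigargin (SE 0.17, adjusted p = 3.2e-05, edgeR), which left 0.495 and 0.329 of the uninduced level. Both calls held in all 11 alternatives, with log2 fold changes of -1.11 to -0.90 and -1.74 to -1.48. In bulk RNA, a fall in all cells and a larger fall in some of them cannot be told apart.

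Between 10 and 100 ng/mL SPPL3 fell by 0.77 in vehicle (SE 0.14, adjusted p = 0.00865, edgeR) and by 1.33 in thapsigargin (SE 0.18, adjusted p = 0.000799, edgeR), on the log2 scale. The vehicle call was lost without replicate 2 at 10 ng/mL (adjusted p = 0.0651, edgeR), replicate 1 at 100 ng/mL (0.0407) or replicate 3 at 100 ng/mL (0.0608). In these fits the log2 difference was -0.69, -0.71 and -0.76, and 9, 21 and 0 genes were called in all, against 356. The thapsigargin call was lost without replicate 2 at 100 ng/mL (-1.20, adjusted p = 0.0159, edgeR), where 42 genes were called in all, against 805. Thapsigargin itself made no call for SPPL3: the log2 difference was -0.14 without doxycycline (adjusted p = 0.456) and -0.75 at 100 ng/mL (adjusted p = 0.0468, edgeR). The latter was called without replicate 1 of the group given 100 ng/mL with thapsigargin (-0.76, adjusted p = 0.00497, edgeR). The difference between these 2 responses was -0.53, with a 95% interval from -0.96 to -0.09, and was not called (adjusted p = 0.137, edgeR interaction test).

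SPPL2A, the endosomal and lysosomal protease, was the other member that fell with 100 ng/mL in vehicle. Its libraries stood at 31.7, 43.6 and 29.4 CPM without doxycycline, at 24.7, 20.1 and 20.1 CPM at 10 ng/mL, and at 17.3, 12.5 and 14.6 CPM at 100 ng/mL. The 3 dose groups did not overlap. It fell by 1.24 on the log2 scale from 0 to 100 ng/mL (SE 0.18, adjusted p = 0.000321, edgeR), to 0.423 of the uninduced level, and the call held in all 11 alternatives (-1.37 to -1.05). From 0 to 10 ng/mL the log2 difference was -0.69 (SE 0.17, adjusted p = 0.0714, edgeR), and it was called without replicate 1 at 10 ng/mL (-0.80, adjusted p = 0.00232).

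In thapsigargin the SPPL2A libraries stood at 23.3, 26.0 and 14.3 CPM without doxycycline, at 21.7, 17.4 and 13.0 CPM at 10 ng/mL, and at 8.49, 11.2 and 11.8 CPM at 100 ng/mL. The last group lay below both others, which overlapped. The log2 difference between 0 and 100 ng/mL was -0.96 (SE 0.24, adjusted p = 0.0152, edgeR) and was not called, but it was without replicate 3 of the uninduced group (-1.19, adjusted p = 0.00296) or replicate 1 of the 100 ng/mL group (-0.80, adjusted p = 0.00717). Thapsigargin without doxycycline gave -0.70 (SE 0.21, adjusted p = 0.0261, edgeR), with no overlap between the groups and no call. It was called lower in 3 of 11 alternatives. These were the replicate block (-0.72, adjusted p = 5.5e-06, edgeR), no filter on low counts (-0.71, adjusted p = 0.00168, edgeR) and DESeq2 (-0.71, adjusted p = 0.00485).

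HM13, signal peptide peptidase itself, had a different order of groups. In vehicle its libraries stood at 133, 126 and 126 CPM without doxycycline, at 159, 163 and 164 CPM at 10 ng/mL, and at 123, 149 and 120 CPM at 100 ng/mL. In thapsigargin they stood at 125, 174 and 130 CPM, then 141, 183 and 140 CPM, then 83.7, 95.4 and 81.3 CPM. The group given 100 ng/mL with thapsigargin was the lowest and overlapped no other, and the middle dose was the highest in both treatments. HM13 fell by 0.77 on the log2 scale between 10 and 100 ng/mL in thapsigargin (SE 0.16, adjusted p = 0.0071, edgeR). This call was lost without any 1 of the 3 libraries at 10 ng/mL (adjusted p = 0.0258, 0.0913 and 0.0108, edgeR) and without replicate 2 or 3 at 100 ng/mL (0.0378 and 0.0277). The log2 differences in these fits ran from -0.84 to -0.61. Over all genes tested, 217, 143, 693, 42 and 534 were called in them, in the same order, against 805. Between 0 and 100 ng/mL in thapsigargin the log2 difference was -0.66 (SE 0.17, adjusted p = 0.0148, edgeR), and it was called without replicate 1 at 100 ng/mL (-0.61, adjusted p = 0.00494). In vehicle the difference over the same doses was 0.03 (95% interval -0.21 to 0.27, adjusted p = 0.882), and the thapsigargin response differed between 100 and 0 ng/mL by -0.63 (95% interval -1.05 to -0.21, adjusted p = 0.0934, edgeR interaction test).

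SPPL2B, the family member that reaches the cell surface, was not called in any comparison. Its libraries stood at 36.6, 29.2 and 34.0 CPM without doxycycline, at 37.0, 48.3 and 53.9 CPM at 10 ng/mL and at 36.5, 55.5 and 38.6 CPM at 100 ng/mL in vehicle. In thapsigargin they stood at 30.3, 37.8 and 36.5 CPM, then 34.6, 43.3 and 46.1 CPM, then 43.7, 19.4 and 28.1 CPM. The last group had the widest spread of any member relative to its mean, with replicate 1 at the top. Without that library, the thapsigargin response at 100 ng/mL was called lower (-0.83, adjusted p = 0.00496, edgeR), against -0.47 with it (SE 0.27, adjusted p = 0.271). Without replicate 1 at 10 ng/mL in vehicle, the difference from 0 ng/mL was called higher (0.62, adjusted p = 0.0024), against 0.48 with it (SE 0.15, adjusted p = 0.0853, edgeR).

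**Figure D1:**
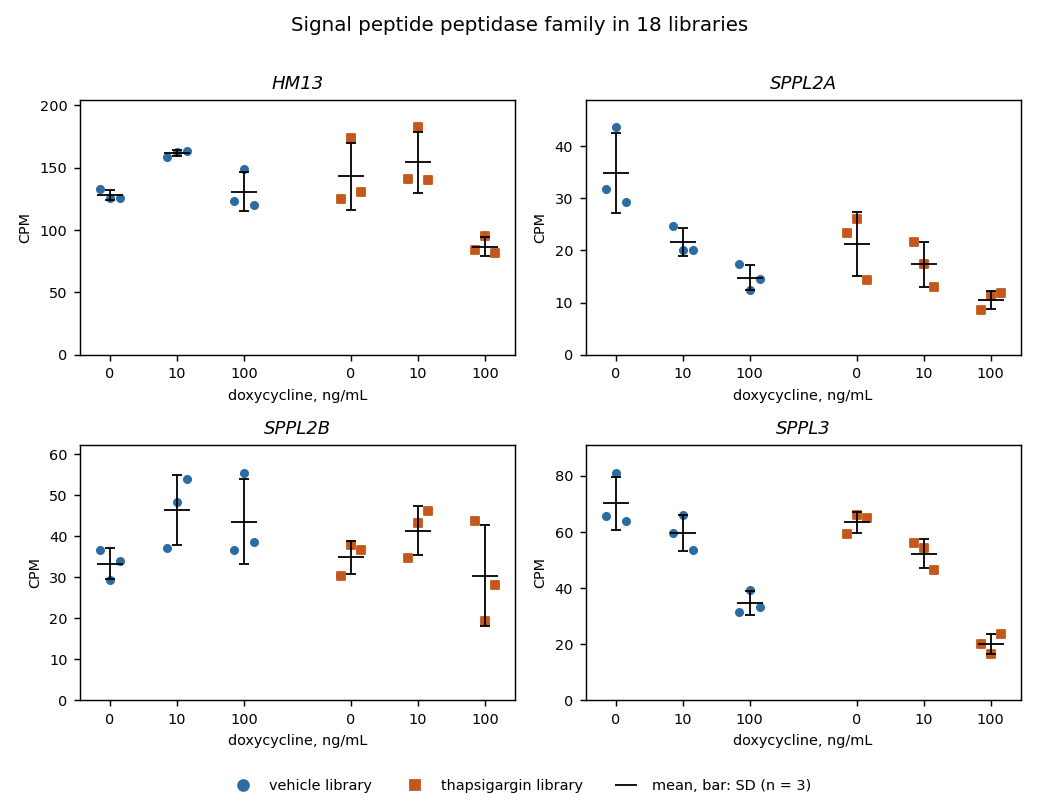
Level of the 4 signal peptide peptidase family genes in CPM (y axis, from 0) by doxycycline dose in ng/mL (x axis), with circles for vehicle libraries, squares for thapsigargin libraries, and a line and bar for the mean and SD of 3. SPPL3 and SPPL2A are lowest at 100 ng/mL in both treatments, whereas HM13 stands apart low at 100 ng/mL with thapsigargin alone, at 86.8 CPM on average.

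None of the 5 signal peptidase subunits was called in any of the 11 comparisons when the groups compared were fitted by edgeR with every library. SPCS1, SPCS2 and, at a threshold of 0.05, SEC11A were called in some comparisons under other settings, as given with their values and under the processing alternatives. SEC11A, a catalytic subunit, stood at 105, 116 and 117 CPM without doxycycline and at 86.7, 84.9 and 93.4 CPM at 100 ng/mL in vehicle, without overlap. Its log2 difference was -0.35 (SE 0.10, 95% interval -0.58 to -0.12, adjusted p = 0.0424, edgeR). The response of SEC11A to thapsigargin without doxycycline was -0.30 (SE 0.11, adjusted p = 0.0583), and between 100 and 0 ng/mL in thapsigargin the difference was -0.13 (SE 0.16, adjusted p = 0.574, edgeR).

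SEC11C, the other catalytic subunit, ranged from 60.4 to 103 CPM over all 18 libraries, and neighbouring groups in the order of its means overlapped throughout. Between 100 and 0 ng/mL its log2 difference was -0.03 in vehicle (95% interval -0.27 to 0.20) and -0.06 in thapsigargin (-0.41 to 0.29). In thapsigargin its libraries at 100 ng/mL (60.4, 74.7 and 74.8 CPM) lay below those at 10 ng/mL (76.2, 103 and 79.6 CPM). That log2 difference was -0.24 (SE 0.17, adjusted p = 0.356, edgeR). Since the 2 subunits are alternatives, SEC11C was also taken as a share of both, in reads per kilobase. The share was 45.9%, 45.9% and 46.4% in uninduced vehicle libraries, 50.9%, 53.6% and 50.2% at 100 ng/mL in vehicle, and 50.7%, 54.9% and 55.2% in uninduced thapsigargin libraries. The last 2 groups lay above the first without overlap, by 5.48 and 7.53 percentage points (two-sided exact permutation test, p = 0.10 for each, the smallest that 3 against 3 allows). In thapsigargin the share at 100 ng/mL was 55.3%, 55.4% and 54.2%, and overlapped that at 0 ng/mL (difference 1.35 points, exact p = 0.50). At 10 ng/mL the share was 48.2%, 54.4% and 55.4% in vehicle, above the uninduced vehicle group, with a mean of 52.7% beside 51.6% at 100 ng/mL. It was 52.7%, 59.5% and 58.1% in thapsigargin. The shares at 10 ng/mL were not tested.

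**Figure D2:**
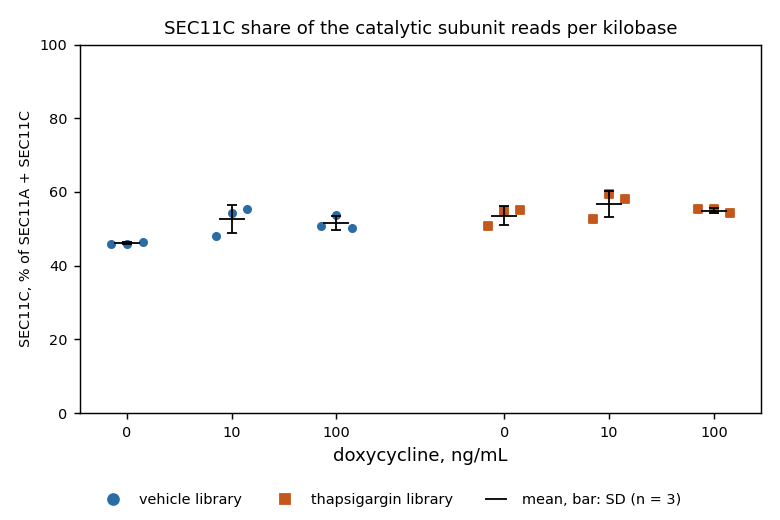
SEC11C as a percentage of SEC11A plus SEC11C in reads per kilobase (y axis, 0 to 100) by doxycycline dose in ng/mL (x axis), with circles for vehicle, squares for thapsigargin, and a line and bar for mean and SD of 3. The uninduced vehicle group, at 46.1% on average, is the lowest and the tightest.

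SPCS1, a small accessory subunit, stood at 40.8, 44.7 and 43.2 CPM in uninduced vehicle cells and at 32.5, 30.9 and 30.9 CPM after thapsigargin. The groups did not overlap, and the log2 difference of -0.44 just missed the threshold (SE 0.11, adjusted p = 0.0132, edgeR). It was called lower in 2 of 11 alternatives, with the replicate block (-0.43, adjusted p = 0.0019, edgeR) and with DESeq2 (-0.44, adjusted p = 0.00295). At 100 ng/mL with thapsigargin its libraries stood at 35.1, 44.6 and 44.2 CPM, all above the uninduced thapsigargin libraries. That difference was 0.46 (SE 0.16, adjusted p = 0.0613, edgeR) and was called higher without replicate 1 at 100 ng/mL (0.58, adjusted p = 0.00335).

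SPCS2, an accessory subunit that contacts the SEC61 channel, had its highest mean at 10 ng/mL in both treatments. In vehicle it stood at 39.0, 32.7 and 36.9 CPM at 0, at 48.5, 62.4 and 57.6 CPM at 10 and at 42.9, 49.3 and 47.5 CPM at 100 ng/mL. In thapsigargin it stood at 41.1, 45.7 and 43.4 CPM, then 38.8, 54.3 and 52.8 CPM, then 31.5, 37.0 and 30.3 CPM. Both induced vehicle groups lay above the uninduced one, whereas in thapsigargin the 100 ng/mL group lay below the uninduced one. The log2 difference between 10 and 0 ng/mL in vehicle was 0.63 (SE 0.13, adjusted p = 0.0501, edgeR), higher than that of 97.7% of genes tested, and was called without replicate 1 at 10 ng/mL (0.73, adjusted p = 0.00084). Between 100 and 0 ng/mL it was 0.36 in vehicle (SE 0.12, adjusted p = 0.0694) and -0.33 in thapsigargin (SE 0.16, adjusted p = 0.148, edgeR). The difference between the thapsigargin responses at 100 and 0 ng/mL was -0.64 (95% interval -1.02 to -0.27, adjusted p = 0.0765, edgeR interaction test).

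SPCS3, an accessory subunit with a large luminal part, stood between 70.9 and 113 CPM over all libraries and had group means from 83.3 to 97.9 CPM. All neighbours in this order overlapped. No log2 difference of SPCS3 between 2 groups exceeded 0.14 in size, but the intervals were wide, from -0.19 to 0.46 for 100 against 0 ng/mL in vehicle and from -0.29 to 0.54 in thapsigargin. True changes of any size within these intervals are compatible with the values of these libraries.

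**Figure D3:**
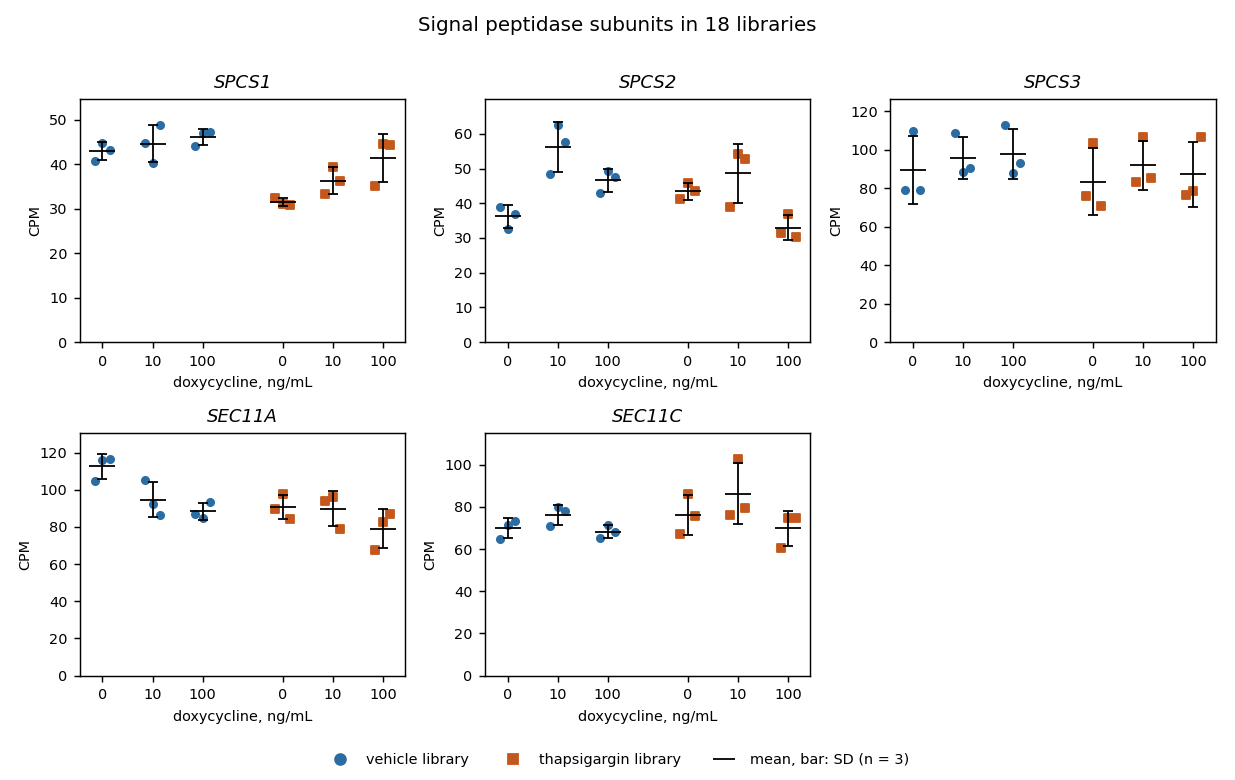
Level of the 5 signal peptidase subunit genes in CPM (y axis, from 0) by doxycycline dose in ng/mL (x axis), with circles for vehicle libraries, squares for thapsigargin libraries, and a line and bar for the mean and SD of 3. SPCS1 is lowest in uninduced thapsigargin cells (31.4 CPM on average) and SEC11A highest in uninduced vehicle cells (113 CPM), while the groups of SPCS3 overlap.

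Counted over the 9 members, 2 were called lower and 0 higher between 100 and 0 ng/mL in vehicle, where 7.49% of all genes tested were called lower and 0.838% higher. Between 100 and 0 ng/mL in thapsigargin 1 member was called lower, against 9.00% of genes lower and 1.53% higher. Without replicate 1 of the group given 100 ng/mL with thapsigargin, 4 members were called there (SPCS1 higher, and HM13, SPPL2A and SPPL3 lower), and over all 14527 genes tested 1957 were called higher and 1993 lower, against 220 and 1292 with it. Between 100 and 10 ng/mL, 1 was called lower in vehicle (2.43% lower and 0.0137% higher over all genes) and 2 in thapsigargin (5.32% lower and 0.235% higher). Without the same library, HM13 and SPPL3 were still called lower in the latter comparison, where 1403 genes were called higher and 1309 lower of 14705, against 34 and 771 with it. The median log2 difference of the 9 members was 0.03 for 100 against 0 ng/mL in vehicle and -0.14 in thapsigargin, beside -0.01 and 0.04 over all genes tested.

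With the edgeR settings used for the calls above, no member was called in the remaining comparisons. Between 10 and 0 ng/mL in vehicle, 0.138% of genes were called higher and 0.0552% lower, but without replicate 1 at 10 ng/mL 1177 of 14616 genes were called higher and 1566 lower, and 3 members with them (SPCS2 and SPPL2B higher, SPPL2A lower). Between the same doses in thapsigargin 0% were called in either direction, with 612 genes at an unadjusted p under 0.05. There the replicate numbers paired the libraries, and with the replicate as a block 564 genes were called, again 0 of them members. The lowest adjusted p of a member was that of SPPL3, 0.0226 at a log2 difference of -0.28. In this fit 6 members, and 24.1% of all genes tested, had an unadjusted p under 0.05. The thapsigargin response called 6.45% of genes higher and 4.74% lower without doxycycline, 1.16% and 0.294% at 10 ng/mL, and 0.180% and 0.0208% at 100 ng/mL. The last of these rests on 1 library: without replicate 1 of the group given 100 ng/mL with thapsigargin, 1426 of 14575 genes were called higher and 1142 lower, against 26 and 3 with it, and SPPL2B and SPPL3 were called lower. The response also depended on the replicate block. With the block, 1845 of 14397 genes were called higher and 1726 lower without doxycycline, SPCS1 and SPPL2A among the lower. At 10 ng/mL the block called 1954 of 14607 higher and 1666 lower, and at 100 ng/mL 4 of 14427 higher and 0 lower. The responses differed from that of uninduced cells in 0% of genes at 10 ng/mL, in either direction, and in 0.00677% (higher) and 0.0339% (lower) at 100 ng/mL. Without the same library the response at 100 ng/mL differed in 865 genes (higher) and 421 genes (lower) of 14946, against 1 and 5 with it, and 0 members were called. DESeq2 called 341 genes in that comparison. DESeq2 called members in 4 of these comparisons. Other settings of edgeR with every library also called members, between 10 and 0 ng/mL in vehicle and in the thapsigargin responses at 0 and 100 ng/mL. Both are given under the processing alternatives.

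**Figure D4:**
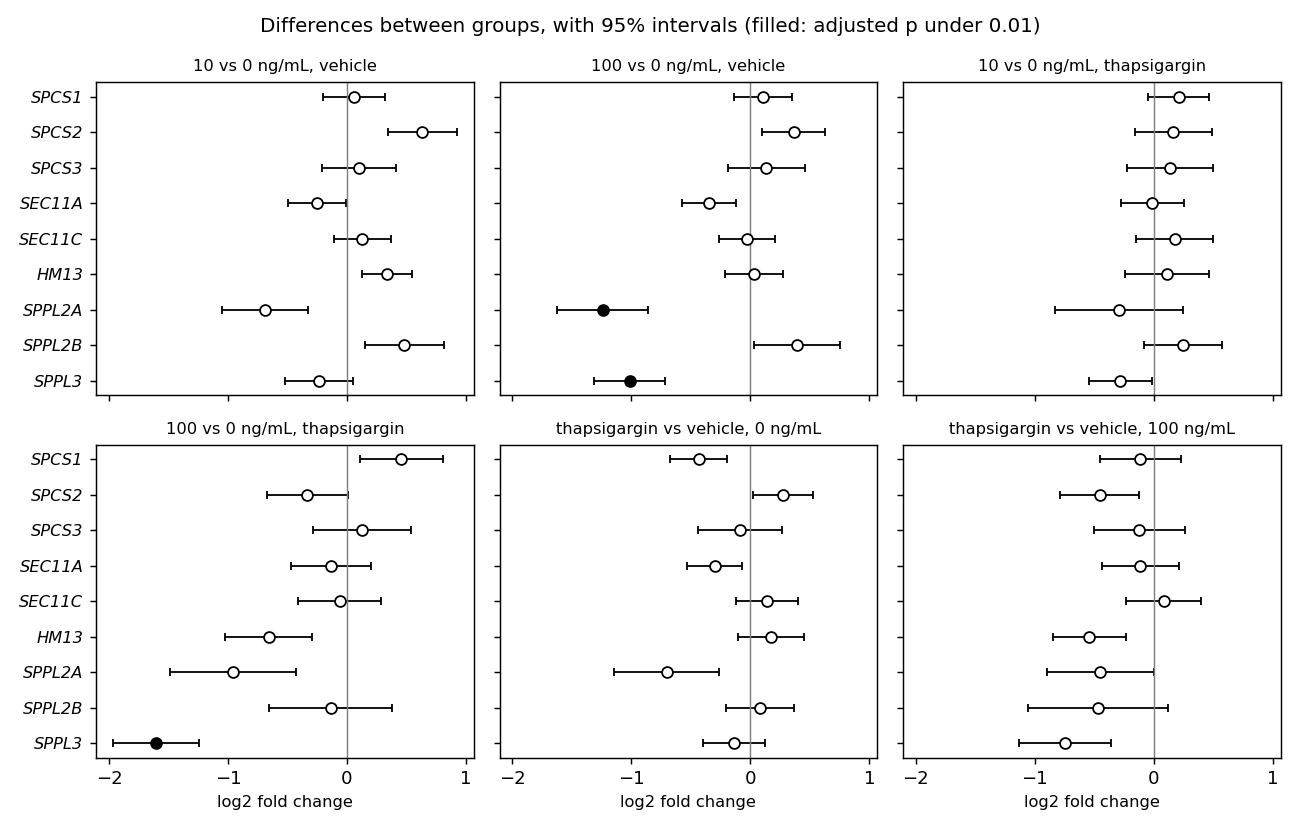
Log2 fold change (x axis) of each of the 9 genes (y axis) in 6 of the comparisons, with 95% intervals as bars, and filled points for an adjusted p under 0.01. SPPL2A and SPPL3 are filled for 100 against 0 ng/mL in vehicle, and SPPL3 for the same doses in thapsigargin, at -1.60.

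Of the 12 translocon partners, the genes of the channel next to which signal peptidase works, 4 were called higher and 1 lower between 100 and 0 ng/mL in vehicle, with a median log2 difference of 0.18. Over all genes tested, 0.838% were called higher and 7.49% lower. SSR2, of the signal sequence receptor, rose by 1.03 (SE 0.12, adjusted p = 6.96e-05, edgeR), from 148, 141 and 161 CPM to 268, 355 and 293 CPM. SEC61B, a channel subunit, rose by 0.97 (SE 0.12, adjusted p = 8.91e-05) and SEC61G, another, by 0.77 (SE 0.13, adjusted p = 0.00135), while SEC63, which helps chains through the channel, fell by 0.63 (SE 0.13, adjusted p = 0.00591, edgeR). No partner was called in the thapsigargin response without doxycycline, where their median was 0.01. The difference between partners and signal peptidase subunits was not tested.

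Of 19 listed genes of other intramembrane proteases, their subunits and relatives, 17 were tested. Between 100 and 0 ng/mL in vehicle 3 fell, against 7.49% of all genes tested, with none higher and a median of -0.08. RHBDD2, a rhomboid-like gene, fell by 0.90 (SE 0.13, adjusted p = 0.000281, edgeR), from 54.9, 46.5 and 46.9 CPM to 24.1, 27.4 and 27.9 CPM. APH1A, a subunit of gamma-secretase, fell by 0.70 (SE 0.14, adjusted p = 0.00337), and ZMPSTE24, a protease of the CAAX pathway, by 0.62 (SE 0.13, adjusted p = 0.00474). In thapsigargin 3 of 17 fell between the same doses, against 9.00% of all genes, with a median of -0.43. Without replicate 1 at 100 ng/mL 6 of 17 fell, against 1993 of all 14527 genes, with a median of -0.46.

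Of the 17 listed substrates of the signal peptide peptidase family 14 were tested between 100 and 0 ng/mL in vehicle, with a median of -0.32. Beside 0.838% of all genes higher and 7.49% lower, 1 substrate was higher and 3 were lower. The 3 were MGAT5, B4GALT1 and EXTL3, glycosyltransferases that SPPL3 is known to release from the Golgi membrane. MGAT5 fell by 0.77 (SE 0.11, adjusted p = 0.000366, edgeR), from 88.4, 86.5 and 91.5 CPM to 47.7, 51.9 and 56.8 CPM. B4GALT1 fell by 0.67 (SE 0.11, adjusted p = 0.00139) and EXTL3 by 0.64 (SE 0.13, adjusted p = 0.00541, edgeR), and in none of the 3 did the groups overlap. XYLT2, the other listed glycosyltransferase, was not called: it stood at 39.6, 34.5 and 37.1 CPM without doxycycline and at 31.7, 46.4 and 34.8 CPM at 100 ng/mL, with overlap (log2 difference 0.02, 95% interval -0.30 to 0.35, adjusted p = 0.929, edgeR). XBP1, whose unspliced protein signal peptide peptidase is known to cut, rose by 1.03 (SE 0.10, adjusted p = 1.85e-05, edgeR). In the thapsigargin response without doxycycline XBP1 rose by 2.66 (SE 0.10, adjusted p = 1.78e-09, edgeR) and TFRC fell by 1.41 (SE 0.13, adjusted p = 1.6e-05, edgeR). VAMP3 and MGAT5 fell by 0.98 and 0.51 on the log2 scale. Thus 1 of 14 was higher and 3 lower, against 6.45% and 4.74% of all genes tested.

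**Figure D5:**
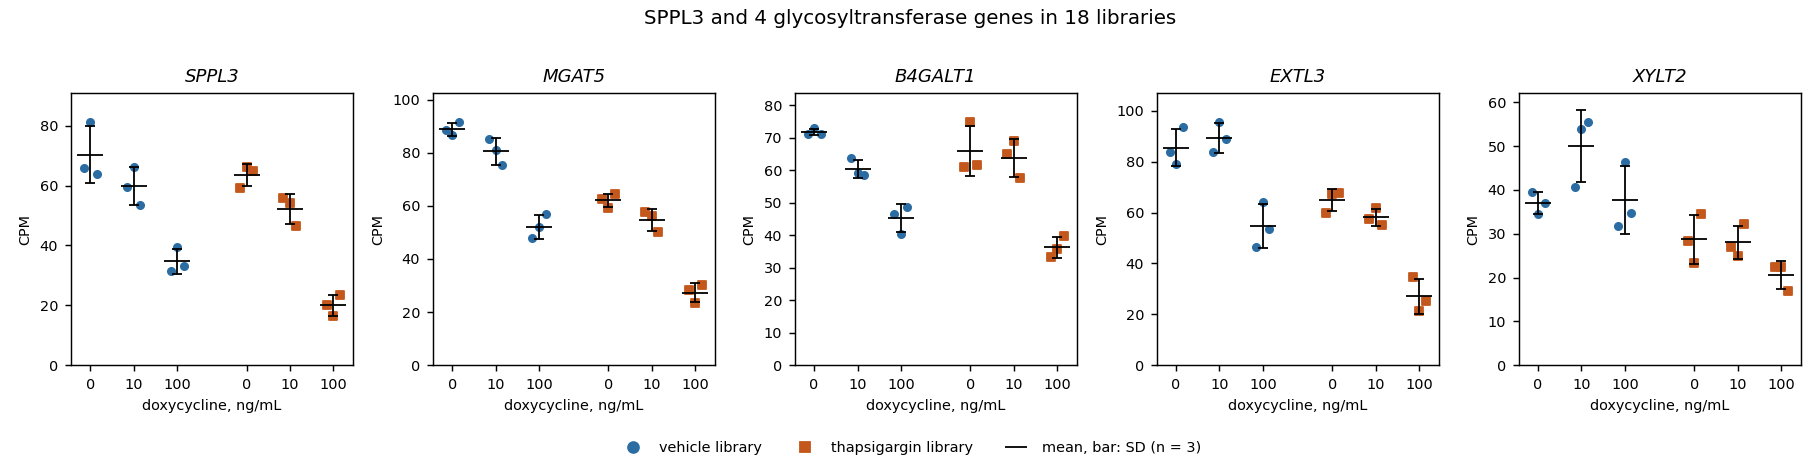
Level of SPPL3 and of the glycosyltransferase genes MGAT5, B4GALT1, EXTL3 and XYLT2 in CPM (y axis, from 0) by doxycycline dose in ng/mL (x axis), with circles for vehicle, squares for thapsigargin, and a line and bar for mean and SD of 3. All 5 have their lowest mean at 100 ng/mL with thapsigargin, where SPPL3 averages 20.0 and MGAT5 27.3 CPM, while in vehicle XYLT2 overlaps between 0 and 100 ng/mL.

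Of the partners of signal peptide peptidase in ER degradation, SYVN1, an ER ubiquitin ligase, rose by 0.72 between 100 and 0 ng/mL in vehicle (SE 0.11, adjusted p = 0.000575, edgeR), from 97.1, 84.3 and 96.8 CPM to 148, 168 and 143 CPM. In the thapsigargin response without doxycycline SYVN1 rose by 1.55 and SEL1L, its partner, by 1.88 (SE 0.20, adjusted p = 4.09e-05, edgeR).

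The genes whose log2 CPM, centred on their mean, followed each member most closely over the 18 libraries were found among 15023 genes by the root-mean-square difference. For SPPL3 they were EPHB2 (0.12) and POFUT1 (0.12), against an SD of SPPL3 itself of 0.67. EPHB2 is an ephrin receptor and POFUT1 a glycosyltransferase of the ER. EPHB2 stood at 47.9 ± 3.03 CPM without doxycycline and at 23.5 ± 3.12 CPM at 100 ng/mL in vehicle, and at 45.5 ± 5.40 and 14.0 ± 1.86 CPM in thapsigargin. For SPPL2A (SD 0.60) they were B2M (0.16), the light chain of class I histocompatibility molecules, and MEGF9 (0.16). B2M stood at 132 ± 23.4, 82.1 ± 22.9 and 47.0 ± 4.69 CPM in vehicle over the 3 doses. For HM13 (SD 0.33) they were SURF4 (0.14), a receptor for ER export, and RPS6KA2 (0.14), and SURF4 had, like HM13, its highest mean at 10 ng/mL in vehicle (536 ± 33.8 CPM) and its lowest at 100 ng/mL with thapsigargin (300 ± 25.5 CPM).

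The other members had SDs of 0.17 to 0.36. The nearest were MESDC2 (0.14) and TSNARE1 (0.15) for SPCS2, ATP5F1 (0.08) and TCEB1 (0.09) for SPCS1, and YIPF4 (0.13) and CADPS2 (0.13) for SPCS3. For SEC11A they were GSTCD (0.08) and PSME3 (0.08), for SEC11C FAM168B (0.12) and PDXDC1 (0.12), and for SPPL2B BCAS4 (0.12) and DALRD3 (0.12). Libraries of 1 group share treatment, so the 18 points are not independent, and no test was made.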

How the data were processed

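The authors aligned single-end reads with STAR against hg38 (per the submitters' processing notes) within VIPER, a workflow for RNA-Seq, and the values they deposited are unnormalized, unfiltered counts for each gene symbol; the annotation, versions and strand setting are not given in the sources used here. Columns were matched to samples through the column numbers in the labels. Each comparison used its own groups: genes were kept by filterByExpr (minimum count 10), scaled by TMM and tested with edgeR 4.0.16 in R 4.3.3 (glmQLFit, glmQLFTest) at an adjusted p of 0.01. The study's methods give the same threshold but a different test, DESeq2 on raw counts. Here DESeq2 was run as an alternative. SE was obtained as log2 fold change over root F. Thapsigargin responses were compared as interactions over 12 libraries. Alternatives were DESeq2 1.42.0, RLE factors, no filter, all 6 groups in 1 fit, a replicate block, a threshold of 0.05 and each library left out. The steps were tested on simulated data.

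Members, lists and tests were chosen with earlier results of these data known. Named genes are the 9 members, ERN2, HSPA5 and DDIT3, from each list up to 2 called genes at either end of the fold changes in 2 comparisons, and the 2 nearest patterns per member. SPPL2C and XYLT2 were named after their values were seen. Replicate numbers come from the labels. Only between 10 and 0 ng/mL in thapsigargin did the libraries of every pair deviate together with a correlation above 0.1 (0.40, 0.34 and 0.47). In the thapsigargin response the correlations were 0.083, 0.20 and 0.27 without doxycycline, and 0.50, -0.033 and 0.44 at 10 ng/mL. Between 100 and 10 ng/mL they were 0.52, 0.28 and -0.018 in vehicle, and -0.27, 0.11 and -0.28 in thapsigargin. Replicate pairs differed by more than sampling noise. In 28 rows a symbol had become a date. Positions and lengths came from GENCODE 29 and figures from matplotlib 3.10.9. A result for 1 of the listed partners in ER degradation is not reported here.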

Additional observations from a re-analysis of the deposited data

Results flagged for a closer look

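SPCS2 was flagged because its response to thapsigargin ran in opposite directions at 2 doses of doxycycline. Without doxycycline, all 3 thapsigargin libraries lay above all 3 vehicle libraries, with a log2 difference of 0.27, and at 100 ng/mL all 3 lay below, with a difference of -0.45. Neither response was called alone (adjusted p = 0.11 and 0.108, edgeR). The test of the difference itself gave -0.64 and an adjusted p of 0.0765 in edgeR's interaction test, and -0.71 with an adjusted p of 0.00428 in DESeq2.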

How the results depend on the processing

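Among 594 log2 fold changes of members under other settings, 554 kept their direction and their side of the threshold, and among 702 with 1 library left out, 632 did. The calls of SPPL3 and SPPL2A between 100 and 0 ng/mL in vehicle, and of SPPL3 in thapsigargin, held in all of them. The threshold of 0.05 reused the same fits, so its values could change their side of the threshold but not their direction. The number of members called moved as follows, and the cause was not tested. DESeq2 called 2 between 10 and 0 ng/mL in vehicle (SPCS2 higher, SPPL2A lower) and 3 between 100 and 0 ng/mL in thapsigargin (HM13, SPPL2A and SPPL3 lower). It called 2 in the thapsigargin response without doxycycline (SPCS1 and SPPL2A lower), 2 in that at 100 ng/mL (HM13 and SPPL3 lower), and 1 in the interaction at 100 ng/mL (SPCS2 lower). Over all genes tested, DESeq2 called 378 of 11763, 2312 of 14008, 2302 of 14068, 728 of 12902 and 341 of 11850, in the same order. The edgeR settings used for the calls above gave 28, 1512, 1611, 29 and 6. Without a filter on low counts the first 3 of these comparisons gave 2, 3 and 1 members, beside 623 of 19842, 2236 of 19752 and 2173 of 19837 genes. A fit of all 6 groups called 3 members between 100 and 0 ng/mL in thapsigargin (2641 of 15023 genes) and 2 in the response at 100 ng/mL (941 of 15023 genes). A threshold of 0.05 called 3 and 1 there (3018 of 14358 and 494 of 14427 genes). It called 2 in the response without doxycycline (3260 of 14397 genes). Where counts moved less, the fit of all groups also called SPCS2 lower between 100 and 10 ng/mL in thapsigargin (-0.56, adjusted p = 0.00585, edgeR), beside 2054 of 15023 genes. The threshold of 0.05 added SEC11A lower between 100 and 0 ng/mL in vehicle, beside 2063 of 14444 genes. RLE size factors called 0 between 100 and 10 ng/mL in vehicle, where SPPL3 just missed the threshold at an adjusted p of 0.01 (edgeR). Over all genes they called 316 of 14549 there, against 356 with TMM. The replicate block was also fitted where not every pair of same-numbered libraries correlated above 0.1. Between 100 and 10 ng/mL in vehicle it called 2 members, beside 1224 of 14549 genes, against 356 without the block. Between these doses in thapsigargin it called 1 (HM13 lost, adjusted p = 0.0285, edgeR), beside 384 of 14493 genes, against 805. In the thapsigargin response without doxycycline it called 2, beside 3571 of 14397 genes, against 1611. Over all genes it moved the calls between 10 and 0 ng/mL in vehicle from 28 to 124. A library had its own number as best match in 39 of 90 cases, and 14 of 27 pairs correlated above 0.1. With 1 library left out, the count of members in vehicle ran from 0 to 3 between 10 and 0 ng/mL and from 0 to 1 between 100 and 10 ng/mL. In thapsigargin it ran from 1 to 4 between 100 and 0 ng/mL and from 0 to 2 between 100 and 10 ng/mL. In the thapsigargin response at 100 ng/mL it ran from 0 to 2. Calls over all genes tested moved too, in the same order from 0 to 2743, 0 to 496, 763 to 3950, 42 to 2712 and 4 to 2568. With every library they were 28, 356, 1512, 805 and 29. Between 100 and 10 ng/mL in vehicle, 9, 21 and 0 genes were called where SPPL3 was lost.

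Signs changed for 24 of 99 values, none over 0.14 in size. In thapsigargin, SPCS3 between 100 and 10 ng/mL became 0.0049 with DESeq2, 0.0069 with RLE factors and 0.029 without a filter. In the interaction at 100 ng/mL, SPCS3 became -0.018, -0.017 and -0.067 with DESeq2, RLE factors and all groups, and SEC11C became -0.041, -0.039 and -0.093, and -0.015 without a filter. With 1 library left out, the ranges in vehicle were -0.0097 to 0.13 for SPCS1 between 10 and 0 ng/mL, -0.087 to 0.00097 for SEC11C and -0.067 to 0.072 for HM13 between 100 and 0 ng/mL, and -0.16 to 0.0069 for SEC11A, -0.0029 to 0.12 for SPCS1, -0.073 to 0.16 for SPCS3 and -0.27 to 0.027 for SPPL2B between 100 and 10 ng/mL. In thapsigargin they were -0.059 to 0.075 for SEC11A and -0.012 to 0.28 for HM13 (10 against 0 ng/mL), -0.14 to 0.055 for SEC11C, -0.46 to 0.096 for SPPL2B and -0.049 to 0.32 for SPCS3 (100 against 0 ng/mL), and -0.19 to 0.13 for SPCS3 and -0.21 to 0.015 for SEC11A (100 against 10 ng/mL). The thapsigargin response ranged from -0.27 to 0.091 for SPCS3 and from -0.0054 to 0.17 for SPPL2B at 0 ng/mL, and from -0.18 to 0.028 for SPCS3, from -0.13 to 0.0098 for SEC11A and from -0.21 to 1.4e-05 for HM13 at 10 ng/mL. The interaction ranged from -0.16 to 0.035 for SPPL3, from -0.14 to 0.22 for SPCS3 and from -0.099 to 0.15 for SEC11C at 10 ng/mL, and from -0.17 to 0.19 for SPCS3 and from -0.18 to 0.078 for SEC11C at 100 ng/mL. Where 1 library was left out of a group, the remaining libraries were assumed to vary like those of the other group. Depth, at 165 or more reads per member and library, limited precision less than the spread of 3 libraries.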
